A study of Mus musculus with 147 samples.

Results

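Among single testicular cells from PND35 and adult mice, 420 cells were taken as pachytene-stage spermatocytes from the level of 3 transcripts. A cell was included when it had a Piwil1 level of at least 200 CPM (the unique molecular identifiers, or UMIs, of a gene scaled to 1000000 UMIs of that cell) and under 100 CPM each of Ccna1 and Acrv1. These cells were 27.6% of the 1523 PND35 and adult cells left after the filter of more than 2000 genes and 10000 to 1000000 UMIs per cell, in a series of 13032 cells. Piwil1 (chromosome 5, 128702524 to 128755474, mm10) encodes the Piwi protein that binds pachytene piRNAs. Ccna1 encodes cyclin A1, which male germ cells need for the meiotic divisions, and Acrv1 an acrosomal protein of spermatids. The other PND35 and adult cells are called Ccna1-high (Ccna1 at least 100 and Acrv1 under 100 CPM, 578 cells), Acrv1-high (Acrv1 at least 100 CPM, 268 cells) and rest (below all 3 limits, 257 cells). Because these levels chose the cells, every difference between the 420 cells and the other PND35 and adult cells is given as a description, with no test.

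The study traced male germ cells from E6.5 embryos to adult testes by STRT-seq, in which the 3′ end of each transcript is read with a cell barcode and a UMI. All animals used here were wild-type offspring of C57BL/6 females and BVSC males, which carry the Blimp1-mVenus and Stella-ECFP transgenes that mark early germ cells. The 4 pools, PND35 replicates 1 and 2 and adult replicates 1 and 2, each came from the testes of 1 animal. The adult animals were 8 to 10 weeks old, and no treatment is named for any of these animals. Cells with germ cell morphology were picked at random by hand after dissociation of the testis, without sorting at these ages, so that shares of cells are shares of what was picked. At PND30 the cells were sorted by DNA content into 4N, 2N and 1N cells, and the PND7 cells and part of the PND14 cells were sorted in the same way. Both PND7 pools held only 2N cells, PND14 replicate 1 held 2N and 4N cells, PND14 replicate 2 held 2N and unsorted cells, and the PND8, PND10 and PND12 pools were unsorted.

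In the pachytene stage of meiosis the homologous chromosomes are held together along their length by the synaptonemal complex while crossovers mature. The unpaired X and Y chromosomes are packed into the sex body and silenced, a process called meiotic sex chromosome inactivation. Pachytene spermatocytes also make large amounts of piRNAs, small RNAs bound by Piwi proteins, and begin to store messages for the later steps of sperm formation. The cells then pass through diplotene and the meiotic divisions to become round spermatids.

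In PND35 replicates 1 and 2 and adult replicates 1 and 2, the order in which values for 4 pools are given throughout, the Piwil1-high cells were 20.4, 32.2, 40.6 and 19.02% of 367, 332, 377 and 447 filtered cells. The exact binomial 95% confidence intervals were 16.4 to 24.9, 27.2 to 37.5, 35.6 to 45.7 and 15.5 to 22.97%, which cover counting error only. The median depth of these cells was 245700, 327350, 344060 and 330770 UMIs, and their summed depth was 20438137 to 56907408 UMIs per pool. They came from 17 libraries and carried 96 barcodes, of which 93 were found in more than 1 library, and no 2 of the cells had identical counts. At the limits, the nearest cells had 198.59 and 200.01 CPM of Piwil1, and 19 cells lay within 20% below that limit and 13 within 20% above it, of 677 cells that met the other limits. For Ccna1 the nearest cells had 99.739 and 100.02 CPM, with 48 cells within 20% below and 34 within 20% above, so more cells sat close to the Ccna1 limit than to the Piwil1 limit. Only 5 and 4 cells lay within 20% of the Acrv1 limit.

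**Figure D1:**
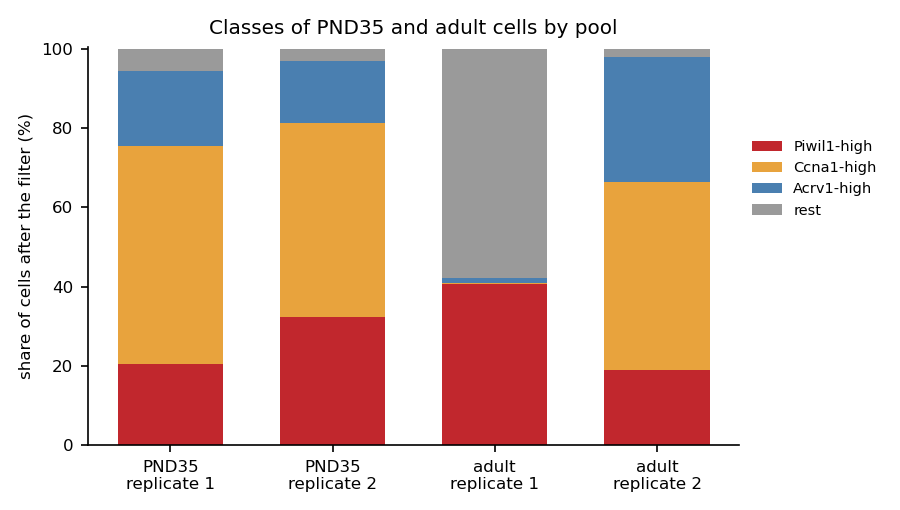
Stacked bars give the share (%) of filtered cells in each of the 4 classes for the 4 pools. Piwil1-high cells were 19.02 to 40.6% of a pool, and adult replicate 1 held 1 Ccna1-high and 5 Acrv1-high cells beside 218 cells of the rest.

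Adult replicate 1 stood apart from the other pools before any comparison was made. Its 377 filtered cells held 1 Ccna1-high and 5 Acrv1-high cells, against at least 163 and at least 52 in each of the other 3 pools. In its Piwil1-high cells, 198 of 8213 genes were at least 4-fold above and 306 at least 4-fold below every other pool, while each other pool had at most 4 such genes in either direction. Across these 8213 genes, which are not independent replicates, the correlation of log levels of adult replicate 1 with the other 3 pools was 0.73 to 0.80, against 0.97 to 0.98 among those 3. Transcripts of Leydig cells, which make testosterone, were present in nearly every one of its cells. Cyp17a1, a steroid hydroxylase, had a UMI in 152 of 153 Piwil1-high cells of adult replicate 1 (median 194 CPM) and in 218 of 218 cells of the rest (median 237 CPM). In the Piwil1-high cells of the other pools it had a UMI in 29.3, 9.35 and 10.6% of cells, with a median of 0 CPM in each, at a like depth. The summed level of the 6 Leydig genes was 645 CPM in adult replicate 1 and 11.3 to 12.9 CPM in the others, with 1 of the 6 at 0 in PND35 replicate 2. The 9 Sertoli cell genes summed to 318 against 27.7 to 55.7 CPM, and the 6 macrophage genes to 36.3 against 3.604 to 5.99 CPM. Myoid genes (9.93 to 20.9 CPM over 5 genes) and endothelial genes (1.76 to 3.43 CPM over 4 genes) were low in all 4 pools. Of the defining somatic markers, Sox9 had 1.13, 0.397, 6.06 and 0.298 CPM and Insl3 0.147, 0.0851, 62.9 and 0.132 CPM. The 4 libraries of adult replicate 1 did not carry these transcripts alike, since Cyp17a1 had 261, 257, 224 and 63.5 CPM in their Piwil1-high cells. The part of these transcripts in any result below was not tested. The main counts include adult replicate 1 where it had at least 10 cells of the class compared, and several are also given without it.

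**Figure D2:**
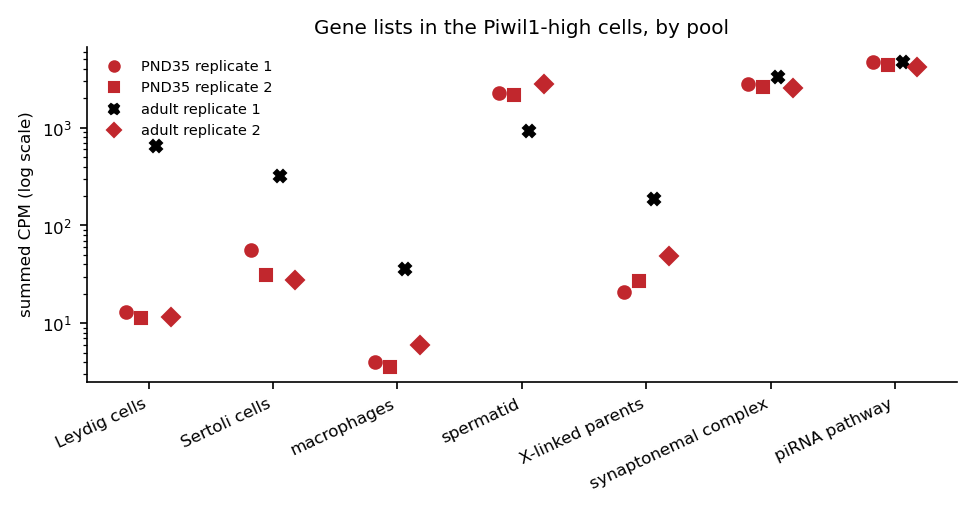
Points give the summed CPM (log scale) of the genes of 7 lists in the Piwil1-high cells, 1 point per pool. Adult replicate 1 (cross) had 645 CPM of Leydig genes against 11.3 to 12.9 CPM in the other pools, whereas the synaptonemal complex list (2532 to 3287 CPM) and the piRNA list (4191 to 4683 CPM) were at a like level in all 4.

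The label was checked against Sycp1 and Pou5f2, which the rule did not use. Sycp1 (chromosome 3, 102818499 to 102936100), the transverse filament of the synaptonemal complex, had 726, 637, 948 and 612 CPM in the Piwil1-high cells. In the Ccna1-high cells of PND35 replicates 1 and 2 and adult replicate 2 it had 194, 206 and 206 CPM, so all Piwil1-high pools were above all Ccna1-high pools, by a log2 ratio of 1.70 ± 0.18 (mean ± SD of 3 pools, on CPM + 1, as for every ratio below). The Ccna1-high cells of these pools were deeper, with medians of 473500, 499150 and 464240 UMIs. Among Piwil1-high cells Sycp1 fell with the UMIs of the cell (Spearman's rho -0.46, -0.60, -0.79 and -0.37 in the 4 pools). The part of depth in this ratio was not tested. In the rest, of PND35 replicates 1 and 2 and adult replicate 1, Sycp1 had 1391, 942 and 524 CPM, which overlapped the Piwil1-high cells. The rest held 20, 10 and 218 cells in these pools, so each value for the rest at PND35, here and below, comes from few cells. Pou5f2 (chromosome 13, 78024902 to 78026295), a testis POU-domain factor, went against the label. It had 59.99, 50.8, 4.31 and 66.8 CPM in the Piwil1-high cells and 260.2, 277 and 249.9 CPM in the Ccna1-high cells, so that every Piwil1-high pool was below every Ccna1-high pool and adult replicate 1 was near 0. The 420 cells are therefore called Piwil1-high cells below, and no finer stage is given to them.

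The PND30 cells sorted by DNA content gave a check that the rule had not used, since spermatocytes in meiotic prophase hold a 4N and round spermatids a 1N amount of DNA. The same 3 limits took 39 of 191 and 18 of 95 4N cells in replicates 1 and 2 (20.4 and 18.9%). They took 2 of 189 and 15 of 88 2N cells (1.06 and 17.05%), and 0 of 192 and 1 of 94 1N cells, where 0 of 192 allows a share of up to 1.56%. Pooled over replicates this was 19.9% of 4N cells (exact binomial 95% interval 15.5 to 25.04%), 6.14% of 2N cells (3.62 to 9.64%) and 0.350% of 1N cells (0.00885 to 1.93%). These intervals cover counting error only and not the spread between animals. The interval of the 2N cells holds neither animal's share. The 4N cells thus held 57 of the 75 sorted cells that passed, and the 2N cells of the 2 replicates differed from each other. With 2 against 2 pools no permutation test can reach 0.05, so none was made. The 4N cells also held 185 Ccna1-high and 44 Acrv1-high cells, so a gene called higher in 4N cells is not thereby particular to the Piwil1-high cells.

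All UMIs of the 4N cells were then summed per animal and compared with those of the 1N cells by edgeR's quasi-likelihood test. The fit did not pair the gates of an animal, and Benjamini-Hochberg adjustment was made over the 19167 genes tested. In this fit 2377 genes (12.4% of those tested) were higher and 2697 (14.1%) lower in 4N cells at an adjusted p under 0.05. Without 1N replicate 2 the same test called 0 genes higher and 0 lower, with 3437 and 3152 genes at an unadjusted p under 0.05, and without 4N replicate 2 it called 994 and 1219. The calls in the following paragraphs rest on those animals in the same way, and the libraries left single were assumed to vary like the other group.

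Part of the genes that build the synaptonemal complex and mature crossovers were at least 2-fold higher in the Piwil1-high than in the Ccna1-high cells of each pool. Of 8207 genes with at least 20 CPM in either class, 866 (10.6%) were at least 2-fold higher and 866 (10.6%) at least 2-fold lower in the Piwil1-high cells of all 3 pools compared. Of the 8 synaptonemal complex genes, 4 were so much higher and 0 lower, and the median log2 ratio of the 8 was 1.39, against 0.01 for all genes. Against the sum of all other cells, in all 4 pools, 1.44% of 11153 genes were at least 2-fold higher and 8.88% lower, and of the list only Sycp3, of the lateral element, was higher and none lower, with 4 higher and 0 lower without adult replicate 1. The 4 above the Ccna1-high cells were Sycp1, Syce2, Tex12 and 4930447C04Rik, the mouse gene for the central-element protein SIX6OS1. Tex12, also of the central element, had 289, 291, 436 and 229 CPM in the Piwil1-high and 37.2, 51.5 and 33.2 CPM in the Ccna1-high cells. The classes did not overlap for Tex12, whose log2 ratio was 2.72 ± 0.23. Syce1, another central-element gene, had 543, 554, 409 and 532 CPM against 515, 557 and 529 CPM, and these ranges overlapped. In the rest, Tex12 had 342, 233 and 237 CPM, which overlapped the Piwil1-high cells, and 0 of the 8 genes were 2-fold higher or lower than in the rest.

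The axis genes Hormad1 and Hormad2 encode proteins that mark unsynapsed chromosome axes. Hormad2 had 99.3, 92.1, 190.2 and 73.2 CPM in the Piwil1-high cells, highest in adult replicate 1, and 24.3, 29.1 and 22.8 CPM in the Ccna1-high cells, so the classes were apart. Hormad1 had 521, 479, 637 and 434 CPM against 214, 241 and 224 CPM, again apart, and with Stag3 was 1 of the 2 genes of 6 called higher in 4N than in 1N cells (log2 difference 1.73 ± 0.27 SE, adjusted p = 0.0103, edgeR). Another 1 of the 6 was called lower, where 12.4% of all genes tested were higher and 14.1% lower. The meiotic cohesin gene Rec8 was low, at 2.84, 1.504, 3.90 and 3.87 CPM, while the Acrv1-high cells had 78.97, 59.1 and 71.9 CPM.

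Genes of break formation and strand exchange did not move together. Spo11, the enzyme that makes meiotic breaks, had 201, 216, 199 and 212 CPM in the Piwil1-high and 92.6, 44.1 and 47.4 CPM in the rest, with no overlap. Dmc1, the meiotic recombinase, had 7.24, 10.05, 53.3 and 6.78 CPM, so that adult replicate 1 was well above the other 3 pools. In the rest it had 118.6, 49.3 and 110.9 CPM, and Prdm9, which places the breaks, had 0.930, 2.38, 12.6 and 1.06 CPM in the Piwil1-high cells and 13.3, 46.7 and 73.5 CPM in the rest. Meiob, a single-strand binding protein, had 156, 127.8, 317 and 103.6 CPM against 24.3, 32.7 and 18.4 CPM in the Ccna1-high cells, where every pool was lower. Of the 13 genes of this list that reached 20 CPM against the rest, 1 was at least 2-fold higher and 5 lower (Mei1, Gm960, Prdm9, Dmc1 and Tex15), where 8.28% of 10357 genes were higher and 12.5% lower.

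Of 11 crossover genes compared with the Ccna1-high cells, 4 were at least 2-fold higher, among them Msh4, Ccnb1ip1 and Hfm1, and 0 lower, with a median log2 ratio of 1.12. Over all genes compared 10.6% were higher and 10.6% lower. Ccnb1ip1 (chromosome 14, 50789248 to 50807732) encodes HEI10, the ligase that gathers at crossover sites. It had 108.3, 118.9, 177 and 82.8 CPM in the Piwil1-high cells, 14.1, 21.3 and 12.3 CPM in the Ccna1-high cells, 9.50, 11.95 and 4.71 CPM in the Acrv1-high cells and 80.8, 46.7 and 62.6 CPM in the rest. Its lowest Piwil1-high pool was above the highest pool of each other class. Msh4, of the complex that stabilizes crossover intermediates, had 35.4, 44.7, 72.2 and 25.7 CPM against 3.58, 8.39 and 3.32 CPM in Piwil1-high and Ccna1-high cells. Mlh3, an endonuclease of crossover resolution, had 107.7, 99.1, 116.5 and 121.4 CPM against 75.99, 74.8 and 83.5 CPM in the Ccna1-high cells and 44.4, 27.01 and 35.99 CPM in the rest. For Mlh3 the Piwil1-high pools were the highest and the rest the lowest, with no overlap. Against the rest, 1 of 12 crossover genes, Mlh3, was at least 2-fold higher and 1, Tex11, lower. Over all 10357 genes compared with the rest, 8.28% were higher and 12.5% lower. In the sorted cells Ccnb1ip1 had 19.3 and 19.7 CPM in 4N and 1.77 and 2.68 CPM in 1N cells (log2 difference 2.97 ± 0.50 SE, adjusted p = 0.0109, edgeR), and 5 of 13 crossover genes were called higher in 4N and 0 lower. For synaptonemal complex genes 4 of 8 were called higher and 1, Syce2, lower. The background for both lists was 12.4% of genes higher and 14.1% lower.

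**Figure D3:**
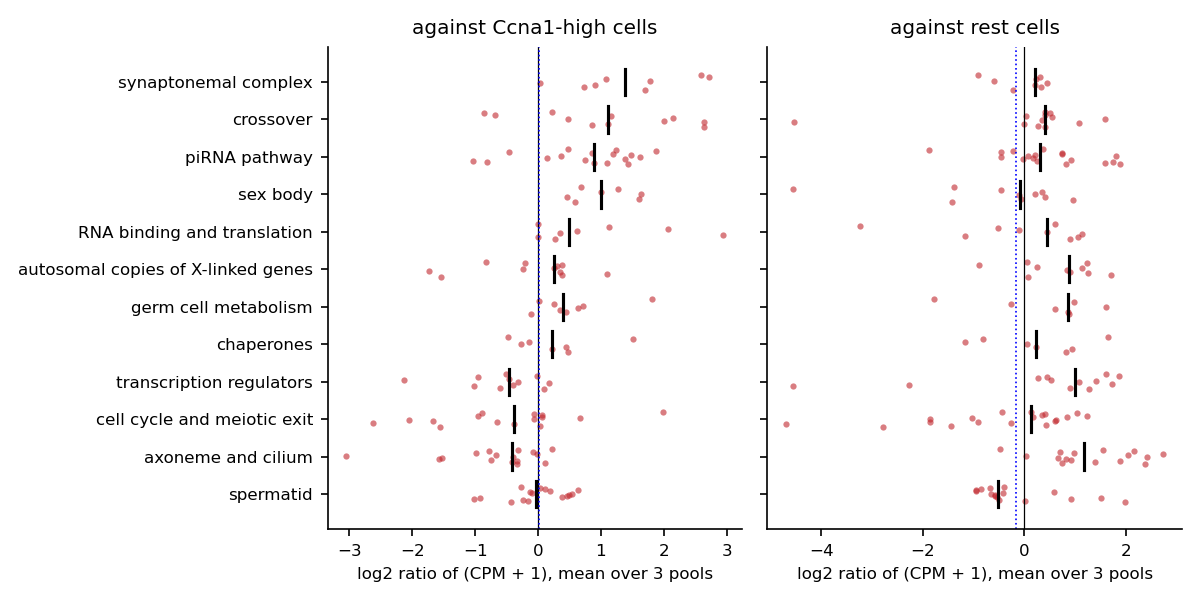
Each point is 1 gene of a list, placed by its log2 ratio of CPM + 1 in Piwil1-high over Ccna1-high cells (left) or over the rest (right), as the mean over 3 pools. Black bars are list medians and the dotted line is the median of all genes compared (0.01 left and -0.17 right), and the synaptonemal complex list has a median of 1.39 on the left and 0.22 on the right.

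Of 17 piRNA pathway genes compared with the Ccna1-high cells, 7 were at least 2-fold higher and 0 lower, with a median log2 ratio of 0.90. Over all genes compared 10.6% were higher and 10.6% lower. Piwil2 (MILI), the second Piwi protein of spermatocytes, had 337, 279.7, 381 and 285 CPM in the Piwil1-high cells and 109.5, 107.6 and 115.1 CPM in the Ccna1-high cells. All 4 Piwil1-high pools were above all Ccna1-high pools and above the Acrv1-high pools, which had 59.2, 56.02 and 45.4 CPM. Mov10l1, the helicase that feeds piRNA precursors into processing, had 292, 249.5, 364 and 234 CPM and 84.8, 82.5 and 82.6 CPM in the Ccna1-high cells. Fkbp6, a chaperone partner in piRNA loading, had 295, 302, 436 and 221 CPM and 65.5, 91.7 and 63.7 CPM in the Ccna1-high cells. Both were lower in each Ccna1-high pool than in any Piwil1-high pool, but the rest had 660.3, 381 and 268 CPM of Mov10l1 and 458, 489 and 445 CPM of Fkbp6, so that the rest lay above all Piwil1-high pools for Fkbp6 and overlapped them for Mov10l1.

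Other genes of the pathway were lower in the rest. Tdrd1, a tudor-domain scaffold, had 367, 316, 267 and 339 CPM in the Piwil1-high cells and 84.96, 88.3 and 77.6 CPM in the rest. Tdrd5, of the same family, had 264, 256, 254 and 231 CPM against 88.8, 113.2 and 60.3 CPM, and Pld6, a mitochondrial enzyme of piRNA biogenesis, 303, 289.8, 249 and 289 CPM against 81.8, 70.6 and 86.9 CPM. None of these 3 overlapped between the classes. With Tdrd6 they were the 4 of 18 genes at least 2-fold higher than in the rest, where 8.28% of all genes were. Tdrd6 and Tdrd7 ran the other way against the Ccna1-high cells. Tdrd6, needed in the chromatoid body of spermatids, had 193, 169.7, 57.1 and 231 CPM in the Piwil1-high and 361, 313 and 364 CPM in the Ccna1-high cells, and Tdrd7 had 97.7, 69.8, 48.8 and 76.98 CPM against 186, 156 and 160.1 CPM. Against the Acrv1-high cells 11 of 17 piRNA genes were at least 2-fold higher and 1 lower, where 19.9% of 9740 genes were higher and 27.9% lower. In sorted cells 12 of 18 piRNA genes were called higher in 4N than in 1N cells and 0 lower (background 12.4 and 14.1%). The largest of these differences in the pathway was that of Tdrd5, with 148 and 143.1 CPM in 4N and 7.96 and 16.4 CPM in 1N cells (log2 difference 3.401 ± 0.45 SE, adjusted p = 0.0103, edgeR).

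In the sex body the checkpoint kinase ATR and its partners coat the X and Y chromosomes. Of 7 sex body genes compared with the Ccna1-high cells, 3 were at least 2-fold higher (Topbp1, Atrip and Rnf8) and 0 lower. Over all genes compared 10.6% were higher and 10.6% lower. Topbp1, an activator of ATR, had 95.3, 77.5, 132.7 and 79.5 CPM in the Piwil1-high cells and 29.3, 23.02 and 28.99 CPM in the Ccna1-high cells, with no overlap. Its level in the rest was 117.6, 107.5 and 87.4 CPM, within the range of the Piwil1-high pools. H2afx, the histone phosphorylated in the sex body, had 452, 403, 598 and 288 CPM against 198, 211 and 154 CPM in the 2 classes. In sorted cells 5 of 10 genes of the list were called higher in 4N and 1, the X-linked Scml2, lower (background 12.4 and 14.1%). Topbp1 had 29.1 and 34.7 CPM in 4N and 3.56 and 4.58 CPM in 1N cells (log2 difference 2.81 ± 0.44 SE, adjusted p = 0.0103, edgeR).

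X-linked transcripts were nearly absent from the Piwil1-high cells. UMIs of 1086 X-linked genes were 0.202, 0.207, 0.546 and 0.247% of the UMIs of 28584 autosomal genes in the 4 pools. Reference cells with at least 50 CPM of Ddx4, the germ cell RNA helicase, and under 200 CPM of Piwil1 were taken from the 10 pools of PND7, PND8, PND10, PND12 and PND14. In them the share was 2.59 to 3.71%, so every pool of the Piwil1-high cells was below every reference pool, by -3.58 on the log2 scale or 11.9-fold in the mean. The Piwil1 limit that chose the cells also bounds this reference, so the difference is given with no test. The share was then compared with that of all Ddx4-positive cells of the 10 pools, whatever their Piwil1 level, which was 1.69 to 3.71%. Against these the difference was -3.45 on the log2 scale, or 10.96-fold (two-sided exact permutation test over 4 and 10 pools, p = 0.001998, the smallest that this design allows). Without adult replicate 1 it was -3.79 (exact permutation p = 0.006993, again the smallest possible). All 10 pools were of younger animals than the 4, so age and class of cell cannot be told apart in this test. In PND12 replicate 2 and PND14 replicates 1 and 2, cells that met the limits for Piwil1, Ccna1 and Acrv1 had 0.555, 0.788 and 0.434%, against 2.86, 3.37 and 2.59% in the reference cells of those pools. The Piwil1 limit also divides these cells of the same pool, so the values are a description with no test.

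Within PND35 and adult testes the same share was 0.216, 0.212 and 0.260% in the Ccna1-high cells of PND35 replicates 1 and 2 and adult replicate 2, close to the Piwil1-high cells of the same pools. It was 1.71, 1.78 and 1.75% in the Acrv1-high cells, and 1.72, 2.53 and 3.04% in the rest of PND35 replicates 1 and 2 and adult replicate 1. Most single Piwil1-high cells lay near the value of their pool. The 20 cells of the rest in PND35 replicate 1 were more spread, with their middle 80% between 0.498 and 3.81%. The middle 80% of Piwil1-high cells lay between 0.110 and 0.328% in PND35 replicate 1, and in adult replicate 1 between 0.285 and 0.721%. Only 1, 1, 10 and 2 Piwil1-high cells reached 1%, against 54 and 41 Acrv1-high cells in PND35 replicates 1 and 2.

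**Figure D4:**
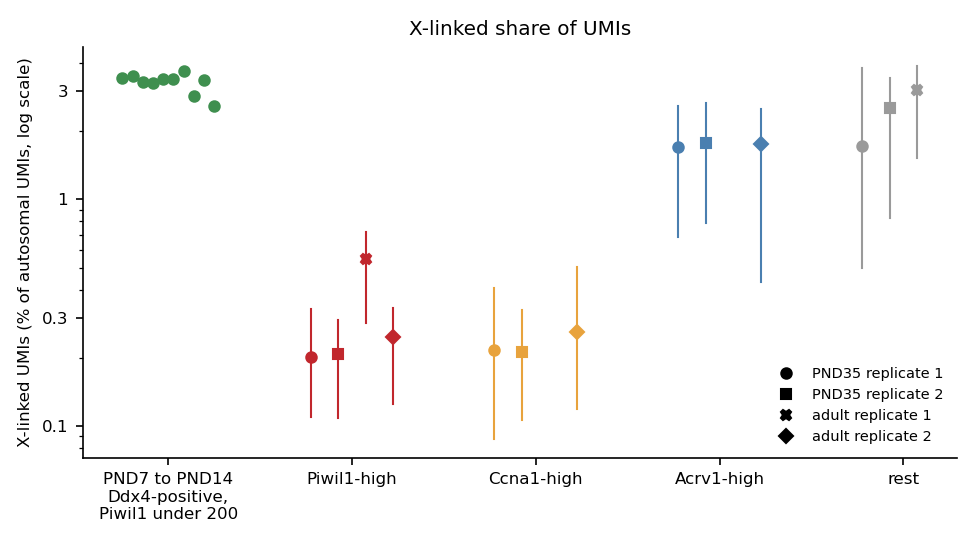
Points give X-linked UMIs as a percent of autosomal UMIs (log scale) summed over the cells of a pool, and lines the 10th to 90th percentile over single cells of PND35 and adult classes. The 4 pools of Piwil1-high cells were at 0.202 to 0.546%, the 10 reference pools at 2.59 to 3.71% and the Acrv1-high cells at 1.71 to 1.78%.

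Few single X-linked genes kept a level in the Piwil1-high cells. Of the 1086 X-linked genes, 23 (2.12%) had at least 5 CPM in each of the 4 pools, against 381 (35.1%) in each of the 10 reference pools, and 51 (4.70%) had it in the 3 pools other than adult replicate 1. Of the 28584 autosomal genes, 30.3% had at least 5 CPM in the 4 pools and 32.9% in the reference pools. The highest Piwil1-high pool was below the lowest reference pool for 45.7% of X-linked and 19.6% of autosomal genes, and the lowest was above the highest reference pool for 1.84 and 12.8%. Rpl10, a ribosomal protein gene, had 2.74, 4.40, 49.4 and 11.7 CPM in the Piwil1-high cells and 273 to 451 CPM in the reference pools. Rbmx2, an RNA-binding protein gene, had 0.832, 0.738, 8.87 and 1.92 CPM against 103.7, 126.2 and 138.5 CPM in the rest, and Usp26, a testis deubiquitinase gene, had 1.13, 0.312, 5.20 and 0.894 CPM against 86.5, 99.2 and 75.4 CPM. For each of these genes adult replicate 1 was the highest Piwil1-high pool, yet below all pools of the rest. Map7d2, Xlr4a and Hccs were the other 3 of the 5 genes furthest below the rest, and all 5 are X-linked. Of the 586 genes at least 4-fold below the rest in all 3 pools, 280 were X-linked, and of the 180 at least 4-fold above it, 0 were. Without adult replicate 1 these were 297 of 790 lower and 0 of 302 higher genes. Of all 30416 genes matched to the annotation, 1086 were X-linked.

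Emd, Gm14698, Ndufa1 and Prdx4 were picked from the X-linked genes for their level in the Piwil1-high cells, after the values were seen. Emd (chromosome X, 74254687 to 74261548), which encodes the nuclear envelope protein emerin, had 258, 259, 297 and 264 CPM in the Piwil1-high cells and 213 to 279 CPM in the reference pools. These ranges overlapped, and the Ccna1-high cells had 225, 227 and 218 CPM. Gm14698 had 156, 159, 189 and 164 CPM, inside its reference range of 82.98 to 191 CPM. Ndufa1, a subunit of respiratory complex I, had 205, 164, 346 and 164 CPM in the Piwil1-high and 52.97, 55.6 and 34.5 CPM in the Ccna1-high cells, so that it was higher in the Piwil1-high cells. Prdx4, a peroxiredoxin gene, had 53.9, 46.8, 166 and 44.8 CPM, below its reference range of 315 to 482 CPM. Cypt1 and 1700010D01Rik, picked in the same way, were above their reference range in all pools but adult replicate 1. Cypt1 had 44.1, 52.8, 11.404 and 54.6 CPM in the Piwil1-high cells and at most 14.155 CPM in a reference pool, and 1700010D01Rik had 30.7, 33.4, 7.87 and 45.7 CPM against at most 15.2 CPM.

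Several X-linked housekeeping genes have autosomal copies, often without introns, that are expressed in meiotic germ cells. Reads of near-identical copies may be split between such genes, so each level carries that uncertainty. Of the 12 X-linked parents listed, 12 were at least 2-fold lower than in the rest in every pool, where 12.5% of all genes were. Their summed level was 20.8, 27.3, 187 and 48.6 CPM. Rpl10l (chromosome 12, 66283379 to 66284401), the copy of Rpl10, had 349.8, 345, 388 and 313 CPM in the Piwil1-high cells, above the 196, 191 and 117.7 CPM of the rest and the 110.5 to 192 CPM of the reference pools. Rpl39l, the copy of Rpl39, had 719, 624, 669.9 and 622 CPM, which overlapped the 710.1, 597 and 411 CPM of the rest, whereas Rpl39 itself had 1.17, 4.60, 45.8 and 12.8 CPM against 148, 166 and 265 CPM. Pdha2, a subunit of pyruvate dehydrogenase, had 441, 443, 364 and 362 CPM in the Piwil1-high cells and 229.5, 117.9 and 74.1 CPM in the rest, with no overlap. Pgk2, the glycolytic kinase of later germ cells, behaved otherwise. It had 97.02, 105.01, 15.2 and 116.9 CPM in the Piwil1-high cells but 308, 328 and 292 CPM in the Ccna1-high and 406, 397 and 415 CPM in the Acrv1-high cells, so that every Piwil1-high pool was below both classes. Of the 12 copies, 1 was called higher (Cstf2t) and 2 lower (Pgk2 and Ubl4b) in 4N than in 1N cells, where 12.4% of all genes tested were higher and 14.1% lower.

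Several regulators of the meiotic divisions were lower than in the Ccna1-high cells. Plk1, the kinase that drives exit from pachytene and the divisions, had 31.1, 32.2, 36.5 and 33.4 CPM in the Piwil1-high cells and 201, 194 and 214 CPM in the Ccna1-high cells. All 4 Piwil1-high pools lay in a narrow range far below the Ccna1-high cells (log2 ratio -2.61 ± 0.06). Ccnb1, the B-type cyclin of the divisions, had 61.9, 72.004, 130.6 and 57.5 CPM against 189, 183 and 197 CPM, and Cdc25a, a phosphatase that activates cyclin-dependent kinases, had 15.95, 14.5, 13.8 and 19.4 CPM against 79.7, 60.3 and 76.003 CPM. With Aurkc, an Aurora kinase of meiosis, these were the 4 of 15 cell cycle genes at least 2-fold below the Ccna1-high cells, where 10.6% of all genes were. Ccne2, cyclin E2, was the 1 gene above them, with 66.7, 64.7, 59.8 and 105.9 CPM, highest in adult replicate 2, against 14.9, 15.1 and 29.2 CPM. Ccnb2, another B-type cyclin, had 378, 408, 401 and 373 CPM against 364, 379.6 and 388 CPM, so the classes overlapped. Cks2, a small subunit of cyclin-dependent kinases, had 786, 715, 797 and 649.7 CPM in the Piwil1-high cells and 457, 469.6 and 422 CPM in the Ccna1-high cells.

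Aurkb (chromosome 11, 69045647 to 69051664), the kinase of the chromosomal passenger complex, was the gene furthest below the other cells in its least separated pool. It had 8.61, 10.1, 16.1 and 6.85 CPM in the Piwil1-high cells, 71.2, 98.7 and 71.3 CPM in the Ccna1-high cells, 20.7, 22.5 and 20.9 CPM in the Acrv1-high cells and 29.2, 35.8 and 92.1 CPM in the rest. No pool of another class was as low as any Piwil1-high pool. In sorted cells Aurkb was higher in 4N (56.7 and 75.1 CPM) than in 1N cells (18.6 and 10.6 CPM), with a log2 difference of 2.03 ± 0.39 SE and an adjusted p of 0.0135 (edgeR). The Piwil1-high cells among the 4N cells had 10.1 and 11.4 CPM, in the range of the PND35 and adult Piwil1-high cells.

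Among transcription regulators, Mybl1 (A-MYB), which turns on pachytene piRNA precursors and many pachytene genes, had 82.4, 56.5, 79.7 and 79.2 CPM in the Piwil1-high and 83.8, 47.8 and 75.7 CPM in the Ccna1-high cells. The 2 classes overlapped, and PND35 replicate 2 was the lowest pool in both. In the rest Mybl1 had 59.9, 18.7 and 21.7 CPM, and in sorted cells 37.8 and 61.8 CPM in 4N and 14.6 and 7.91 CPM in 1N cells (log2 difference 2.01 ± 0.44 SE, adjusted p = 0.0189, edgeR). Rfx2, a factor of ciliary genes, had 154, 127.3, 102.2 and 167 CPM, above the rest (60.2, 38.95 and 21.5 CPM) and overlapping the Ccna1-high cells (219, 167 and 206 CPM) at their edge. Of 12 transcription regulators compared with the rest, 2 were at least 2-fold higher (Rfx2 and Ovol1) and 2 lower (Taf7l and Taf4b). Against the Ccna1-high cells 0 of 11 were higher and 1, Pou5f2, lower. Of RNA-binding proteins, Dazl, a translational regulator of germ cells, had 329, 279, 558 and 250.4 CPM, against 36.2, 44.5 and 29.03 CPM in the Ccna1-high cells and 1147, 858 and 602 CPM in the rest. Dazl was thus intermediate, with no overlap with either class, although adult replicate 1 came close to the rest. Ythdc2, needed for entry into meiotic prophase, had 68.01, 43.8, 75.2 and 52.8 CPM against 13.6, 10.5 and 12.4 CPM in Piwil1-high and Ccna1-high cells. Of 8 RNA-binding genes compared with the Ccna1-high cells, 3 were at least 2-fold higher (Dazl, Ythdc2 and Celf1) and 0 lower. Against the rest 0 of 9 were higher and 1, Elavl2, lower. Over all genes, 10.6% were higher and 10.6% lower than in the Ccna1-high cells. The shares against the rest were 8.28% higher and 12.5% lower.

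The axoneme is the microtubule core of the sperm tail. Of 16 axoneme genes compared with the rest, 7 were at least 2-fold higher in the Piwil1-high cells (Spag6l, Rsph9, Tekt1, Dnaic1, Dnali1, Ccdc39 and Drc1) and 0 lower, with a median log2 ratio of 1.19, against -0.17 for all genes. Over all 10357 genes compared with the rest, 8.28% were higher and 12.5% lower. Ccdc39, of the machinery that sets the axoneme's spacing, had 274, 294, 222 and 300.3 CPM in the Piwil1-high cells, 64.7, 35.8 and 24.1 CPM in the rest and 292, 301 and 286 CPM in the Ccna1-high cells. It was therefore as high in the Piwil1-high cells as in the Ccna1-high cells, adult replicate 1 excepted. Against the Ccna1-high cells 0 of the 16 were 2-fold higher and 3 were lower, where 10.6% of all genes were higher and 10.6% lower. Of these 3, Dnaic2, an outer dynein arm chain, had 23.9, 19.5, 1.23 and 18.5 CPM against 190.1, 169.7 and 170.2 CPM, and Tekt3, a tektin of the flagellum, 89.1, 100.4, 7.05 and 109.7 CPM against 297, 304 and 293 CPM. In both, adult replicate 1 was far below the other Piwil1-high pools.

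Transcripts known from spermatids were found in the Piwil1-high cells too. Prm1, the protamine that replaces histones in sperm, had 275, 249, 47.2 and 379.6 CPM in the Piwil1-high cells and 172, 172 and 316 CPM in the Ccna1-high cells. The Acrv1-high cells had 444, 421 and 598 CPM and the rest 412, 533 and 49.7 CPM, so that within a pool all classes had Prm1, and the rest and Piwil1-high cells of adult replicate 1 were both low. Cells that met the 3 limits at PND12 and PND14, ages at which the testis has no spermatids, had 31.2, 0.209 and 63.7 CPM of Prm1 in PND12 replicate 2, PND14 replicate 1 and PND14 replicate 2. Whether these UMIs come from the cells themselves or from RNA of other cells was not tested. Of 17 spermatid genes compared with the Acrv1-high cells, 10 were at least 2-fold lower in the Piwil1-high cells and 0 higher. Over all 9740 genes so compared, 27.9% were lower and 19.9% higher. Against the Ccna1-high cells 0 of 16 were 2-fold higher and 0 lower. In sorted cells 13 of 17 spermatid genes were called lower in 4N than in 1N cells and 0 higher (background 14.1 and 12.4%).

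Across all genes, 13 of 13671 (0.0951%) were at least 4-fold higher in the Piwil1-high cells than in all other cells of their pool in each of the 4 pools, and 152 (1.11%) at least 4-fold lower. In adult replicate 1 the other cells are nearly all of the rest, and without that pool the shares were 0.662 and 5.60% of 15257 genes. Of the 152 lower genes 38 were X-linked, and of the 13 higher genes 0 were. Without adult replicate 1, 12.2% of 854 lower genes were X-linked. Over the 30416 genes matched to the annotation 1086 were X-linked, so 0 of 13 higher genes is no sign of a shortage. The genes furthest above and below in their least separated pool, among those with at least 50 CPM in every pool of the higher side, are described here and drawn in the plot of leading genes.

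B3galnt1 (chromosome 3, 69574158 to 69598960), a glycosyltransferase of globoside synthesis, led the higher genes. It had 121.4, 119.6, 205 and 97.9 CPM in the Piwil1-high cells, 15.2, 20.2 and 19.04 CPM in the Ccna1-high cells, 10.2, 13.6 and 8.21 CPM in the Acrv1-high cells and 58.01, 23.9 and 31.96 CPM in the rest. The lowest Piwil1-high pool was above the highest pool of any other class. Zfp820, a zinc finger gene, had 163, 85.4, 105.9 and 96.6 CPM against 13.6, 6.53 and 12.1 CPM in the Ccna1-high cells and 13.3, 15.6 and 17.3 CPM in the rest, and it had the largest mean log2 ratio of the 12 genes against all other cells (3.25 ± 0.50 SD, n = 4 pools). Kcnk10 (chromosome 12, 98429437 to 98578310), a leak potassium channel gene, had 182, 177, 194 and 226 CPM in the Piwil1-high cells, 53.1, 51.9 and 68.998 CPM in the Ccna1-high cells and 5.71, 9.87 and 13.7 CPM in the rest. The order was the same in every pool that could be compared, with Piwil1-high cells highest and the rest lowest. Adad2, an RNA-binding protein of germ cells, had 128.4, 75.9, 140.1 and 91.5 CPM, and Stox1, a winged-helix protein gene, had 119.1, 105.5, 90.9 and 136.2 CPM, against 47.6, 45.2 and 57.7 CPM in the Ccna1-high cells and 2.85, 3.64 and 25.3 CPM in the rest. Slc9a3r2, a scaffold of membrane transporters, had 144.9, 183, 149 and 141.5 CPM, against 29.9, 36.96 and 27.4 CPM in the Ccna1-high cells. Fbxo15, Gstt2, Mib2, Gm10010, AC125141.3 and Ccnb1ip1 completed the 12.

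**Figure D5:**
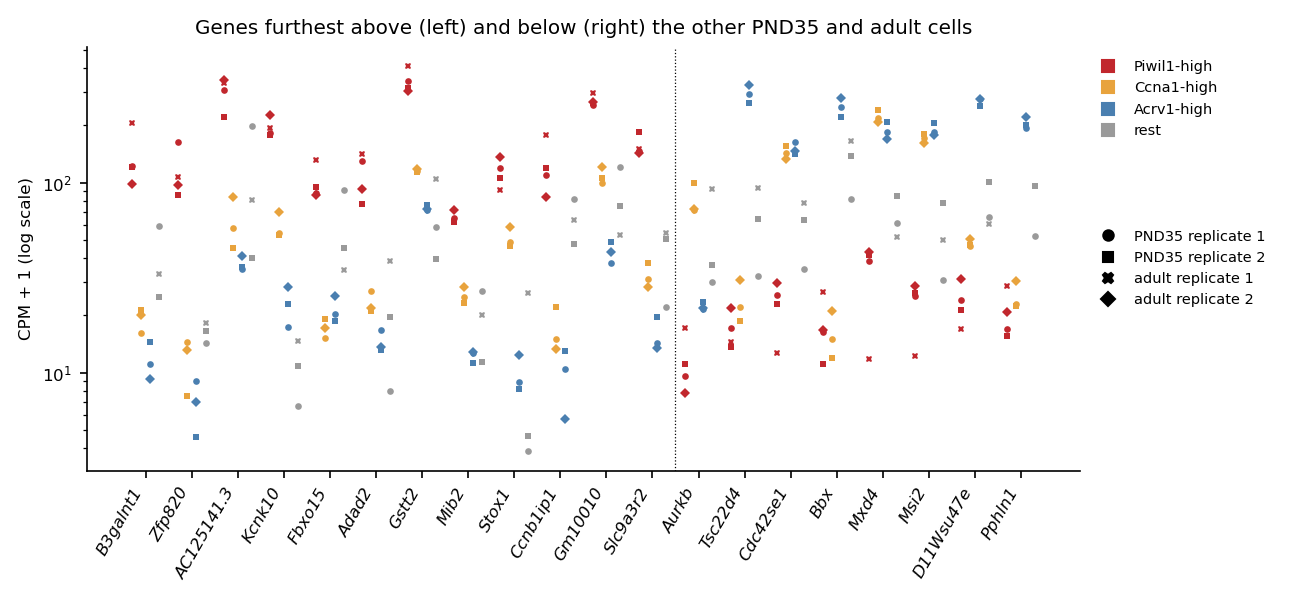
Points give CPM + 1 (log scale) per pool and class for the 12 genes furthest above and the 8 furthest below the other PND35 and adult cells. B3galnt1, at 97.9 to 205 CPM in Piwil1-high pools, and Aurkb, at 6.85 to 16.1 CPM, stand at the head of each side.

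Of the 8 lower genes, Tsc22d4, Bbx, D11Wsu47e and Pphln1 were high in the Acrv1-high cells. Bbx, an HMG-box gene, had 15.3, 10.1, 25.5 and 15.8 CPM in the Piwil1-high and 249, 221 and 277 CPM in the Acrv1-high cells, and Tsc22d4 16.1, 12.6, 13.6 and 21.02 CPM against 293, 260.4 and 327 CPM. In the Ccna1-high cells Bbx had 14.1, 10.98 and 20.2 CPM, which overlapped the Piwil1-high cells. Cdc42se1, Mxd4 and Msi2 were high in both other classes. Msi2, an RNA-binding protein of the Musashi family, had 24.4, 25.4, 11.3 and 27.6 CPM in the Piwil1-high, 171, 179 and 162 CPM in the Ccna1-high and 183, 205 and 178 CPM in the Acrv1-high cells, with no overlap.

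In the sorted PND30 cells 10 of the 12 higher genes were called higher in 4N than in 1N cells and 0 lower (background 12.4%). The largest difference was that of Stox1, with 54.7 and 53.997 CPM in 4N and 1.32 and 5.95 CPM in 1N cells (log2 difference 3.74 ± 0.72 SE, adjusted p = 0.0136, edgeR). Kcnk10 had 67.5 and 70.8 CPM in 4N against 8.999 and 9.995 CPM in 1N cells (log2 difference 2.7 ± 0.35 SE, adjusted p = 0.0103), and B3galnt1 20.8 and 18.2 CPM in 4N against 2.45 and 3.63 CPM in 1N cells (2.52 ± 0.49 SE, adjusted p = 0.0137). The 2 not called were Fbxo15 (adjusted p = 0.497) and Zfp820 (2.26 ± 0.81 SE, adjusted p = 0.0713), which was at 2.87 and 7.18 CPM in 4N cells and passed with the animal as a block (2.24). Of the 8 lower genes 4 were called lower in 4N cells (background 14.1%), namely Tsc22d4, Bbx, D11Wsu47e and Pphln1, and 1, Aurkb, higher. The leading genes had to reach 50 CPM, and the full 4-fold sets were called less often on the higher side. Of the 13 genes at least 4-fold higher in every pool, 12 were tested, of which 4 were called higher in 4N cells and 0 lower. Of the 152 at least 4-fold lower, 92 were called lower and 3 higher.

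Against the Ccna1-high cells alone, 151 of 13957 genes were at least 4-fold higher and 274 at least 4-fold lower in the 3 pools compared, and 0 of either were X-linked. Among the 30416 genes matched to the annotation 1086 were X-linked. Only 51 of these had at least 5 CPM in the Piwil1-high cells of the 3 pools, and the X-linked share was as low in the Ccna1-high cells. The 0 on either side is therefore no sign of a shortage. Chd3os, Pex7, Zfp820, Exosc7 and Dazl were furthest above. Pex7, the import receptor for a class of peroxisomal enzymes, had 129.4, 119.3, 205 and 99.9 CPM in the Piwil1-high and 11.4, 15.1 and 11.6 CPM in the Ccna1-high cells. Exosc7, a subunit of the RNA exosome, had 130.3, 156, 206 and 124.6 CPM against 14.2, 21.6 and 16.99 CPM. Both were also high in the rest, with 177, 92.4 and 111.1 CPM of Pex7 and 105.9, 124.6 and 175 CPM of Exosc7. Chd3os, named as a transcript of the strand opposite Chd3, had 144.9, 156, 147.4 and 132.4 CPM against 15.8, 19.3 and 16.5 CPM, and whether reads of the 2 strands were kept apart is not given in the sources used here. Rgcc, a cell cycle regulator, was furthest below, with 8.81, 12.3, 4.43 and 6.85 CPM in the Piwil1-high and 89.6, 117.7 and 70.7 CPM in the Ccna1-high cells. The others furthest below were 4930511A02Rik, Slc25a54, Gm26553 and Gm26689, of which the last 2 had nearly the same counts in every pool and cannot be told apart.

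Against the rest, 180 of 13368 genes were at least 4-fold higher in PND35 replicates 1 and 2 and adult replicate 1, led by 1700009C05Rik, Kcnk10, Elfn2, Gm32926 and Gm45861. Elfn2, a leucine-rich repeat membrane protein gene, had 378, 381, 348 and 395 CPM in the Piwil1-high cells and 15.2, 31.7 and 33.6 CPM in the rest. 1700009C05Rik had 216, 235, 233 and 256 CPM against 11.4, 14.5 and 13.9 CPM, so both were high and even over the 4 Piwil1-high pools. Spermatogonial and preleptotene genes set the rest apart in the other direction. At least 2-fold lower in the Piwil1-high cells were 6 of 11 of them, where 12.5% of all genes were. Stra8, the switch for entry into meiosis, had 5.28, 7.24, 50.9 and 2.71 CPM in the Piwil1-high cells, highest in adult replicate 1, and 132.8, 284 and 334 CPM in the rest. Dmrt1, which acts in spermatogonia, had 1.61, 1.93, 19.3 and 1.42 CPM against 52.3, 142.8 and 182 CPM. Without adult replicate 1, in the 2 PND35 pools, 302 of 14471 genes were at least 4-fold higher than in the rest and 790 lower. These counts use only 20 and 10 cells of the rest. Of the lists counted against the rest here, the synaptonemal complex and piRNA lists then each had 1 gene at least 2-fold lower in place of 0. The RNA-binding list had 2 lower in place of 1. The counts of break formation, crossover, transcription regulator, axoneme, spermatogonial and X-linked parent genes were the same.

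Cells that met the same 3 limits were also found in younger testes, with 24.02% of 229 filtered cells in PND12 replicate 2, 2.33% of 473 in PND14 replicate 1, which is 11 cells, and 30.3% of 379 in PND14 replicate 2. At PND14 these are shares of cells sorted in whole or in part, of which 2 of 285 cells sorted as 2N and 9 of 188 sorted as 4N passed in replicate 1 and 29 of 94 sorted as 2N and 86 of 285 unsorted cells in replicate 2. The X-linked share given above for these cells was near that of adult replicate 1 (0.546%) and above the other 3 pools, while the rule-passing 4N cells of PND30 had 0.155 and 0.143%. Stra8 had 89.9, 127.04 and 49.4 CPM in these PND12 and PND14 cells, and Pou5f2 25.3, 0.209 and 5.54 CPM. Leydig transcripts were near 0 in them, with 14.5, 2.71 and 8.93 CPM over the 6 genes, against 645 CPM in adult replicate 1. Ccnb1ip1 had 183, 193 and 192 CPM and B3galnt1 172, 214 and 199 CPM, as high as in adult replicate 1, while Ldhc, the lactate dehydrogenase of meiotic and later germ cells, had 1015, 613 and 916 CPM against 1434, 1336, 904 and 1331 CPM in the 4 pools. In all of these measures except the Leydig genes, which were chosen after the values were seen, adult replicate 1 was nearer to the PND12 and PND14 cells than the other 3 pools were, and this was not tested.

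Adult and PND35 Piwil1-high cells were compared by edgeR over the 4 pools. None of 17611 genes passed an adjusted p of 0.05 (0%), while 295 were higher and 35 lower in adults at an unadjusted p under 0.05, and DESeq2 called 29 higher and 5 lower. The outcome turned on which adult pool was included. Without adult replicate 1, 168 of 18308 genes (0.918%) were higher and 92 (0.503%) lower in adult replicate 2 than in the PND35 pools, with the single adult pool assumed to vary like the PND35 pools. Without adult replicate 2 the counts were 3683 and 3372. Because no gene was called over the 4 pools, the 3 genes given here were chosen after their values were seen. Gm10800 had 17.96, 33.04, 249.8 and 145.7 CPM, so that both adult pools were above both PND35 pools (adult replicate 2 minus PND35, log2 2.44 ± 0.23 SE, adjusted p = 2.52e-23, and over all 4 pools 2.89 ± 0.43 SE, adjusted p = 0.9997, edgeR). Nmnat3, an enzyme of NAD synthesis, had 56.7, 62.4, 48.9 and 169 CPM and Kbtbd6, a ubiquitin ligase adaptor, 162, 177, 153 and 65.4 CPM. For both, adult replicate 2 stood apart and adult replicate 1 was with the PND35 pools, so the ages overlapped. Of the meiotic genes described above, Sycp1 differed by -0.23 ± 0.12 SE (adjusted p = 0.510) and Ccnb1ip1 by -0.52 ± 0.20 SE (adjusted p = 0.233) between adult replicate 2 and PND35.

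The Piwil1-high cells varied among themselves. In single cells of the 4 pools the median Dazl was 304, 226, 598 and 179 CPM, and the 10th and 90th percentiles were 70.1 and 680 CPM in PND35 replicate 1. Cells with more Dazl had a higher X-linked share in 3 pools (Spearman's rho 0.47, 0.50 and 0.30 over 75 cells or more) but not in adult replicate 1 (rho -0.09 over 153 cells). Ldhc ran the other way in all 4, with rho of -0.42, -0.34, -0.52 and -0.38 between its level and the X-linked share. Cells of a pool share an animal and libraries, and both measures are shares of the same UMIs. Depth moved with several genes as well, since Ldhc had rho of -0.58 to -0.73 with the UMIs of the cell and Hspa2, a testis chaperone, -0.72 to -0.94, so the order of cells by these genes is also an order by depth. Kcnk10 had rho of 0.06 to 0.29 with depth, -0.22 to 0.01 with the X-linked share, and a median of 178, 161, 184 and 226 CPM.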

How the data were processed

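Single testicular cells were profiled by STRT-seq. The table of UMI counts was deposited by the authors, one column per cell and not normalized. The submitters' processing notes name CASAVA 1.8, UMI-tools, STAR, Subread (featureCounts) and mm10. Of 13032 columns, 4808 cells of wild-type PND7 to adult testes were used and 8224 were not used here. The time-point and replicate of each cell were read from the deposited cell table, and the authors' cell types were not used. Chromosomes and positions came from the GENCODE annotation of mm10.

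Members and gene lists were chosen with earlier results of these data known. UMIs were summed per pool and class with at least 10 cells, and CPM and log2 ratios of CPM + 1 were taken from the sums. No doublet caller was run, since cells had been picked one by one. Named genes were, beside those of the lists, the 12 highest and 8 lowest by their least separated pool against all other cells, and 5 and 5 against the Ccna1-high cells and the rest, with at least 50 CPM in every pool of the higher side and the 3 genes of the rule left out. No gene met the rule for named age differences. Sums of the Piwil1-high cells (adult against PND35) and of all sorted PND30 cells (4N against 1N) were tested with edgeR 4.0.16 in R 4.3.3 (TMM, filter on low counts, quasi-likelihood F-test, Benjamini-Hochberg adjustment, threshold 0.05), with DESeq2 1.42.0 as an alternative. The SE printed with an edgeR log2 difference is not an output of that test. It was calculated as the absolute log2 difference over the square root of the F statistic. The X-linked share was tested by an exact permutation test over pools in Python 3.11.15. Intervals and floors (3 counts for a count of 0) cover counting error only. Alternatives changed the limits of the rule, the pseudocount, the fold, the depth of cells, the filter, the normalization, the tool and the pools included, and the X-linked share without the PND8 pools, with the PND12 and PND14 pools alone or with no Piwil1 limit on the reference cells was added after seeing the data.

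The PND30 gates of a replicate came from the same animal, so their numbers pair the samples. The main fit left this pairing out, and the fit with the animal as a block was run as an alternative. Deviations of same-numbered pools had a correlation of 0.09 across 17106 genes, which are not independent. PND35 and adult numbers name different animals, with a correlation of 0.03 across 15852 genes. Tested on simulated data with 200 changed genes, the PND30 comparison of 19167 genes recovered 0, 38, 72 and 84% of changes of 2, 4, 16 and 64-fold with 2 false calls, and the age comparison of 17611 genes recovered 2, 28, 68 and 80% with 11 false calls.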

Additional observations from a re-analysis of the deposited data

Results flagged for a closer look

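Over the 4 pools of Piwil1-high cells, 25 values (22.9% of those given for all 4 pools) had 1 pool far from the others by Dixon's criterion (gap over range above 0.829), which chance alone gives in about 1 in 20 groups. The values screened include genes chosen after their values were seen, and lists beside their own genes. The 22.9% therefore cannot be set against that chance rate. In 22 of the 25 the pool was adult replicate 1. Its X-linked share was 0.546% against 0.202 to 0.247% in the other 3 pools. Of the 23 gene lists, 8 set adult replicate 1 apart by their summed level. It had 1481 CPM of break formation and strand exchange genes (1101 to 1147 in the others), 1076 CPM of crossover genes (813 to 855), and 187 CPM of X-linked parents (20.8 to 48.6). Spermatogonial and preleptotene genes had 524 CPM (572 to 577). Somatic lists had 318 CPM for Sertoli cells (27.7 to 55.7), 645 CPM for Leydig cells (11.3 to 12.9), 36.3 CPM for macrophages (3.604 to 5.99) and 22.7 CPM for blood cells (2.84 to 6.22).

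Single genes set the same pool apart. Adult replicate 1 had 53.3 CPM of Dmc1 (6.78 to 10.1 in the others), 50.9 CPM of Stra8 (2.71 to 7.24), 201 CPM of Cyp17a1 (0.482 to 1.86) and 214 CPM of Cyp11a1 (1.08 to 2.89). It also had 19.3 CPM of Dmrt1 (1.42 to 1.93), 12.6 CPM of Prdm9 (0.930 to 2.38), 62.9 CPM of Insl3 (0.0851 to 0.147) and 6.06 CPM of Sox9 (0.298 to 1.13), and it was the lowest pool for Syce1, with 409 CPM (532 to 554). Of X-linked genes, it had 297 CPM of Emd (258 to 264), 166 CPM of Prdx4 (44.8 to 53.9), 8.87 CPM of Rbmx2 (0.738 to 1.92) and 5.20 CPM of Usp26 (0.312 to 1.13). In PND35 replicate 2, Mybl1 had 56.5 CPM against 79.2 to 82.4 CPM elsewhere. In adult replicate 2, Ccne2 had 105.9 CPM (59.8 to 66.7 elsewhere) and Nmnat3 169 CPM (48.9 to 62.4).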

How the results depend on the processing

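The X-linked share stayed below the reference pools under every alternative run, by -3.20 to -3.91 on the log2 scale. It was -3.58 without the PND8 pools, -3.50 against the PND12 and PND14 pools alone and -3.45 against reference cells with no Piwil1 limit, all chosen after seeing the data. The age comparison depended on the pools and the tool. DESeq2 called 29 genes higher and 5 lower, and with no filter on low counts edgeR called 1 higher. Leaving out 1 pool gave 3 to 3683 genes higher and 0 to 3372 lower, the most without adult replicate 2 and then without adult replicate 1. For 4N against 1N cells, 4076 genes were lower by DESeq2 and 4067 with no filter, while leaving out 1 pool gave 0 to 3045 higher and 0 to 3569 lower, with 0 of each without 1N replicate 2 and 994 and 1219 without 4N replicate 2. With the animal as a replicate block 2467 were higher and 3691 lower, and of the named genes Zfp820 and Hccs newly passed. The replicate block gave 0 and 0 for age.

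Genes at least 4-fold apart from all other cells in every pool (0.0951% higher, 1.11% lower) were 0.428% lower with Piwil1 at least 100 CPM, 0.0367% higher with Piwil1 at least 300 CPM and 0.0297% higher with Ccna1 and Acrv1 under 50 CPM. They were 0.0219 and 0.0512% with a pseudocount of 5 CPM, and 1.41 and 9.81% at 2-fold. Leaving out 1 pool gave 0.101 to 0.662% higher and 1.20 to 5.60% lower, the most without adult replicate 1. With Ccna1 and Acrv1 under 50 CPM, 263 cells remained and 5.24% of 4N cells passed, and with 200 CPM 33.2% passed, so the number of cells depends on where the Ccna1 and Acrv1 limits are set. Of the values of single genes, 252 4N against 1N results stayed on their side of the threshold, 17 newly passed and 31 no longer passed, and 186 ratios against other cells moved less than the spread between pools and 34 more. No gene that passed the threshold changed sign. Of genes that did not pass, leaving out 1 pool gave -0.12 to 0.87 for Fbxo15 on the log2 scale (lowest without 4N replicate 1), and -0.10 to 0.33 for Mxd4, -0.20 to 0.73 for Rgcc and -3.01 to 0.51 for Map7d2, with the sign turned without 1N replicate 2. The causes were not tested.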
